A study of Mus musculus with 9 samples.

Results

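The 9 cytokine receptor genes described here are Kit, Epor, Csf3r, Csf2ra, Csf2rb, Csf2rb2, Il3ra, Il6ra and Il6st. They were found by symbol in a table of 37882 genes, and each symbol matched 1 row. Expression was measured by RNA sequencing in LSK cells, mouse bone marrow cells that lack lineage markers and carry Sca1 and cKit, among which blood stem and early progenitor cells are found. K36M mice carried the H3K36M histone transgene in Col1a1 with rtTA in Rosa26, and K9M mice carried the H3K9M transgene in Col1a1 with rtTA in Rosa26. The series title names both transgenes as H3.3, with methionine in place of lysine 36 or lysine 9. rtTA control mice carried rtTA in Rosa26 alone. All groups were B6/129 mice aged 6 to 8 weeks that drank 2 mg/ml doxycycline with 10 mg/ml sucrose, so the drug was shared by the controls. There were 3 mice and 3 libraries per group, and no group with an unmutated H3.3 transgene, so an effect of the mutation and of carrying a transgene cannot be told apart against rtTA.

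Cytokine receptors carry signals from growth factors in the marrow into the progenitor cell. Kit is the receptor tyrosine kinase for stem cell factor. The others lack a kinase of their own and work through JAK kinases and STAT transcription factors. Epor and Csf3r act as pairs of the same chain and receive erythropoietin and G-CSF, the main drivers of red cell and neutrophil output. Csf2ra and Il3ra are the ligand-binding alpha chains for GM-CSF and IL-3, and both signal through the common beta chain encoded by Csf2rb. Mice also have Csf2rb2, a second beta chain that serves IL-3 alone. Il6ra binds IL-6 and signals through Il6st, or gp130, which is shared with LIF and oncostatin M.

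The beta chain genes are neighbours on mm10 chromosome 15. Csf2rb (ENSMUSG00000071713) lies on the plus strand at 78325752 to 78353847, and Csf2rb2 (ENSMUSG00000071714) on the minus strand at 78282507 to 78305721. Their longest annotated coding sequences, 2688 bases in Csf2rb and 2634 in Csf2rb2, were identical at 95.2% of 2628 aligned bases. Of the 2639 stretches of 50 bases in Csf2rb, 687 (26%) also occur in Csf2rb2. How reads matching several places were counted is not given in the sources used here. The split of reads between these genes is uncertain. The sequences below are shown because they set how far reads can be assigned. First is the least alike gap-free window of 60 coding bases, with the 13 bases that differ in capitals, at coding positions 304 to 363 of Csf2rb and 307 to 366 of Csf2rb2.
Csf2rb: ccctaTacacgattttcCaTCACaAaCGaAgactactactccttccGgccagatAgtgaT
Csf2rb2: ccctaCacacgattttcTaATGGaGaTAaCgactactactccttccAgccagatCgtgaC
Then follows the longest run shared by both genes, 242 bases at coding positions 2083 to 2324 of Csf2rb, from which a short read cannot be assigned to either.
Csf2rb and Csf2rb2: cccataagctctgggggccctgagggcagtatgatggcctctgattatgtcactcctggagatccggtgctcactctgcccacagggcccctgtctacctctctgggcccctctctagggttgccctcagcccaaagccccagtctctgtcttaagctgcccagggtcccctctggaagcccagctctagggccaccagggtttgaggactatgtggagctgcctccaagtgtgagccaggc

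Levels are RPKM, the authors' reads per kilobase of gene scaled to library size, so members can be set beside each other. All 9 members passed a filter of at least 1 RPKM in at least 3 libraries, as did 12926 genes in all. Library depth, read from the steps of the lowest values, was about 15860000 to 50310000 reads. At that depth the least covered value of the receptors, a value of Epor, still rested on about 100 reads, and the least covered value of Csf2rb2 on about 230. RNA was taken from sorted populations, so fewer cells of a type and less RNA per cell cannot be told apart. Markers of LSK cells summed to 588 to 628 RPKM in K36M, 694 to 829 in K9M and 659 to 872 in rtTA. Cd34, the largest part of each sum, stood at 285 to 310 RPKM in K36M, 381 to 432 in K9M and 320 to 399 in rtTA. Against rtTA, 8 of the 10 markers had a lower estimate in K36M. The other 2, Slamf1 and Mecom, had a higher one. By limma 0 of the 10 were called, where 1.50% of tested genes were. The T cell markers Cd3e, Cd3d, Cd3g and Cd8a stayed under 1 RPKM in every library, as did Ncr1 of the same T and NK cell list. The other genes of that list did not. Klrd1 stood at 0.418 to 4.3 RPKM, and Nkg7 at 98.3 to 144 in K36M, 122 to 129 in K9M and 89.3 to 94.3 in rtTA. Neither was called by limma in a comparison. The summed level of 10 mature granulocyte markers was 181 to 417 RPKM in K36M, 453 to 1091 in K9M and 725 to 6413 in rtTA, the top value belonging to rtTA 3.

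Kit stood far above the other receptors in every group, followed by Csf3r. In rtTA cells the order was Kit (95.4 RPKM), Csf3r (30.8), Il3ra (22.3), Il6ra (14.8), Csf2ra (13.2), Csf2rb (11.5), Il6st (4.95), Epor (3.56) and Csf2rb2 (2.22), as means of 3 mice. Ranges overlapped there between the neighbours Csf3r and Il3ra, Il6ra and Csf2ra, and Csf2ra and Csf2rb. K9M cells had the same first 4 genes in the same order, with Csf2rb (9.65) and Csf2ra (9.58) nearly equal. In K36M cells Csf2rb (21.2 RPKM) and Il6ra (18.0) stood before Il3ra (14.1), and all neighbours below Kit overlapped. Among tested genes in rtTA, Kit was at percentile 95.2, Csf3r at 83.9, Epor at 26.1 and Csf2rb2 at 16.2 by mean RPKM.

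**Figure D1:**
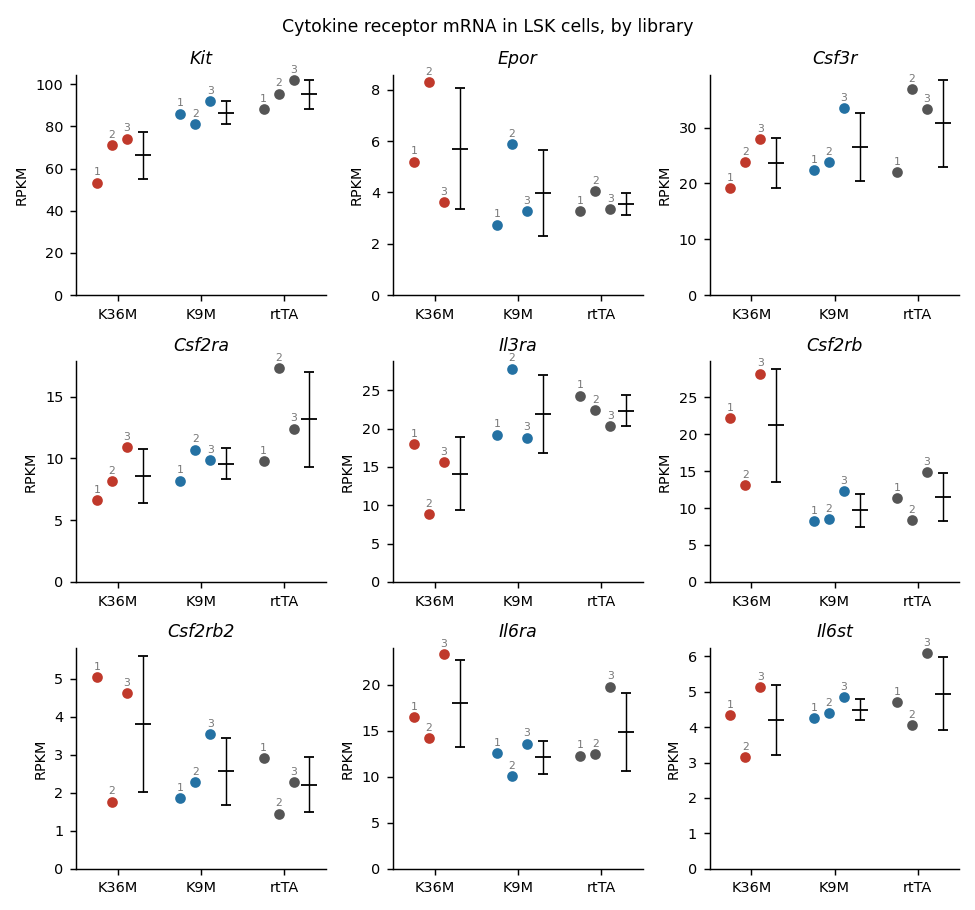
RPKM of the 9 receptor genes (vertical axes) in K36M, K9M and rtTA LSK cells, 1 point per mouse with its replicate number, beside the mean and SD of 3 mice. Kit is lower in all 3 K36M libraries than in the others, and Csf2rb is highest in K36M 3 (28.2) and K36M 1 (22.2) with K36M 2 at 13.1.

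By limma, 0 of the 9 receptors were called in any comparison at a Benjamini-Hochberg adjusted p under 0.05 over all tested genes. For K36M against rtTA 194 genes (1.50%) were called and for K9M against rtTA 15 genes (0.116%), and these comparisons share the rtTA libraries. For K36M against K9M 326 genes (2.52%) were called. An unadjusted p under 0.05 was reached by 4 receptors in K36M against rtTA, where 19.1% of tested genes did so, by 0 in K9M against rtTA (7.11%) and by 4 in K36M against K9M (18.8%). Fold changes below are limma estimates on log2(RPKM + 0.5), which understates changes of low genes, with 95% intervals.

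Kit (ENSMUSG00000005672, mm10 chromosome 5, 75574916 to 75656722, plus strand) encodes the cKit protein on which the cells were sorted. In order of replicate number, here and below, it stood at 53.3, 71.1 and 74.2 RPKM in K36M, 86.1, 81.1 and 92.0 in K9M, and 88.1, 95.5 and 102 in rtTA. Every K36M library lay below every library of the other groups, and K9M and rtTA overlapped. The difference was -0.54 for K36M against rtTA (interval -0.84 to -0.23, limma adjusted p = 0.0918), -0.39 for K36M against K9M (-0.70 to -0.09, 0.159) and -0.14 for K9M against rtTA (-0.45 to 0.17, 0.858). All cells had passed a gate on cKit protein, and how the gate was set in each mouse is not given in the sources used here.

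Epor (ENSMUSG00000006235, chromosome 9, 21958897 to 21963506, minus strand) stood at 5.20, 8.29 and 3.63 RPKM in K36M, 2.74, 5.88 and 3.28 in K9M, and 3.27, 4.04 and 3.36 in rtTA. Replicate 2 was the highest of its group each time, and the groups overlapped. K36M against rtTA gave 0.55 (interval -0.15 to 1.25, limma adjusted p = 0.374), K36M against K9M 0.47 (-0.23 to 1.17, 0.468) and K9M against rtTA 0.08 (-0.62 to 0.78, 0.973). Of the 12 erythroid markers 3, Klf1, Gata1 and Ermap, shared that replicate order with Epor and 9 did not. Klf1, an erythroid transcription factor gene, was highest in replicate 2 of each group, at 12.7, 15.2 and 10.8 RPKM in K36M, 6.19, 10.6 and 4.97 in K9M, and 5.94, 9.63 and 8.35 in rtTA. Over 9 libraries the tested genes most like Epor were Cldn13 (Pearson r = 0.958), Myh10 (0.931) and Ermap (0.93), the last an erythrocyte membrane gene on the erythroid marker list, so that likeness is a description of these libraries. The 12 erythroid markers summed to 205 to 346 RPKM in K36M, 170 to 260 in K9M and 104 to 177 in rtTA. Hbb-bt, a beta globin gene whose reads may be shared with its close copy Hbb-bs, made up much of the K36M sums, at 206, 181 and 101 RPKM in K36M, 40.1, 23.7 and 5.66 in K9M, and 9.80, 12.4 and 14.4 in rtTA. It was called higher in K36M than in rtTA (3.64, limma adjusted p = 0.0267) and than in K9M (3.10, limma adjusted p = 0.0336). Leaving out each of 5 libraries in turn lost either call: K36M 1, K36M 3 and each rtTA library against rtTA, and K9M 2, each K36M library and rtTA 3 against K9M (limma adjusted p up to 0.129). Both were also lost with no filter, the call against rtTA with library weights, and the call against K9M with only the groups compared (limma adjusted p up to 0.0854). Of 10 erythroid markers tested, 6 had a positive estimate in K36M against K9M. The other 4, Hbb-bs (-0.33), Hba-a1 (-0.43), Hba-a2 (-0.7) and Car1 (-1.32), had a negative one. In K36M against rtTA 8 were positive and 2 negative. Without Hbb-bt, a sum added after the values were seen, the markers came to 104 to 165 RPKM in K36M, 164 to 236 in K9M and 94.4 to 163 in rtTA. K36M overlapped both other groups in this sum, and every K9M library lay above every rtTA library. Among the markers Alas2 and Slc4a1, genes of late red cells, stayed under 1 RPKM everywhere. The part of erythroid cells in the Epor values was not tested.

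The Epor promoter is shown because it is 1 of 2 receptor promoters that held the letters searched. It covers the 250 bases before the RefSeq start on GRCm38.p6, chr9:21963577-21963826, minus strand, with the letters TTATCT in capitals.
Epor: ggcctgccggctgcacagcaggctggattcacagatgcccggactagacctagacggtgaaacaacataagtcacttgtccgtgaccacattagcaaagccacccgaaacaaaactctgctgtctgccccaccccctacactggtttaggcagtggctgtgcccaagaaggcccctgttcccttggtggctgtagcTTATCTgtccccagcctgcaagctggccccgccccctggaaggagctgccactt
AGATAA and its reverse complement TTATCT, letters that GATA factors are known to bind, were searched on both strands. The match begins 54 bases before the start. Such letters stood in 10.3% of 27025 mouse promoters of this length, and in 2 of the 8 receptors with a promoter in the table, Epor and Il6ra. A match describes the sequence and is no evidence of binding.

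Csf3r (ENSMUSG00000028859, chromosome 4, 126024550 to 126044440, plus strand) stood at 19.1, 23.8 and 28.0 RPKM in K36M, 22.4, 23.8 and 33.5 in K9M, and 22.0, 36.9 and 33.4 in rtTA. All groups overlapped. The fold changes were -0.36 for K36M against rtTA (interval -0.87 to 0.16, limma adjusted p = 0.436) and -0.20 for K9M against rtTA (-0.71 to 0.32, 0.881). For K36M against K9M it was -0.16 (-0.68 to 0.36, 0.762). The receptor is abundant on neutrophils, and the mature granulocyte markers summed to 6413 RPKM in rtTA 3 and 725 in rtTA 2. Csf3r was 33.4 RPKM in rtTA 3 and 36.9 in rtTA 2. The part of mature granulocytes in the Csf3r values was not tested.

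The alpha chains ran lower in K36M than in rtTA without passing the test. Csf2ra (ENSMUSG00000059326, chromosome 19, 61223957 to 61228429, minus strand) stood at 6.65, 8.13 and 10.9 RPKM in K36M, 8.19, 10.7 and 9.83 in K9M, and 9.76, 17.3 and 12.4 in rtTA. K36M and K9M each overlapped rtTA, whose replicate 2 was the highest library. The fold change of Csf2ra was -0.58 for K36M against rtTA (interval -1.10 to -0.07, limma adjusted p = 0.213), -0.41 for K9M against rtTA (-0.92 to 0.10, 0.757) and -0.17 for K36M against K9M (-0.69 to 0.34, 0.738).

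Il3ra (ENSMUSG00000068758, chromosome 14, 14346275 to 14356011, plus strand) stood at 18.0, 8.79 and 15.6 RPKM in K36M, 19.2, 27.8 and 18.8 in K9M, and 24.3, 22.4 and 20.3 in rtTA. All K36M libraries lay below all others, K36M 2 the furthest, while K9M spanned the rtTA range. The fold change of Il3ra was -0.70 for K36M against rtTA (interval -1.26 to -0.14, limma adjusted p = 0.18), -0.65 for K36M against K9M (-1.22 to -0.09, 0.197) and -0.05 for K9M against rtTA (-0.61 to 0.52, 0.981). An exon of Il3ra overlaps Gm48860, and one of Il6ra overlaps Gm42809, both on the opposite strand. Use of strand in the counting is not given in the sources used here. Reads of each pair cannot be told apart.

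Csf2rb had the largest estimated difference of the 9 receptors. It stood at 22.2, 13.1 and 28.2 RPKM in K36M, 8.22, 8.47 and 12.3 in K9M, and 11.3, 8.41 and 14.9 in rtTA. All K36M libraries lay above all K9M libraries, whereas K36M 2 lay below rtTA 3. The fold change was 1.05 for K36M against K9M (interval 0.38 to 1.72, limma adjusted p = 0.0993), 0.82 for K36M against rtTA (0.15 to 1.48, 0.184) and -0.23 for K9M against rtTA (-0.90 to 0.43, 0.894). Without K36M 2 the difference from K9M was 1.35 and was called (limma adjusted p = 0.0324). With the replicate number as a block, an alternative fit, the K36M against rtTA difference was called (0.82, limma adjusted p = 0.0437), among 301 genes (2.33%). The labels do not state that a number pairs mice.

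Csf2rb2 stood at 5.05, 1.77 and 4.62 RPKM in K36M, 1.85, 2.29 and 3.54 in K9M, and 2.91, 1.45 and 2.29 in rtTA. As for Csf2rb, replicate 2 was the lowest K36M library, and the groups overlapped. Its fold change was 0.60 for K36M against rtTA (interval -0.23 to 1.43, limma adjusted p = 0.418), 0.43 for K36M against K9M (-0.41 to 1.26, 0.588) and 0.17 for K9M against rtTA (-0.66 to 1.00, 0.938). Because the genes share the sequences printed above, their RPKM were also summed, an alternative chosen after seeing the data. The sum was 27.3, 14.8 and 32.8 RPKM in K36M, 10.1, 10.8 and 15.8 in K9M, and 14.2, 9.86 and 17.1 in rtTA. K36M overlapped both other groups in this sum, at 0.80 against rtTA (limma adjusted p = 0.21) and 0.96 against K9M (0.138).

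**Figure D2:**
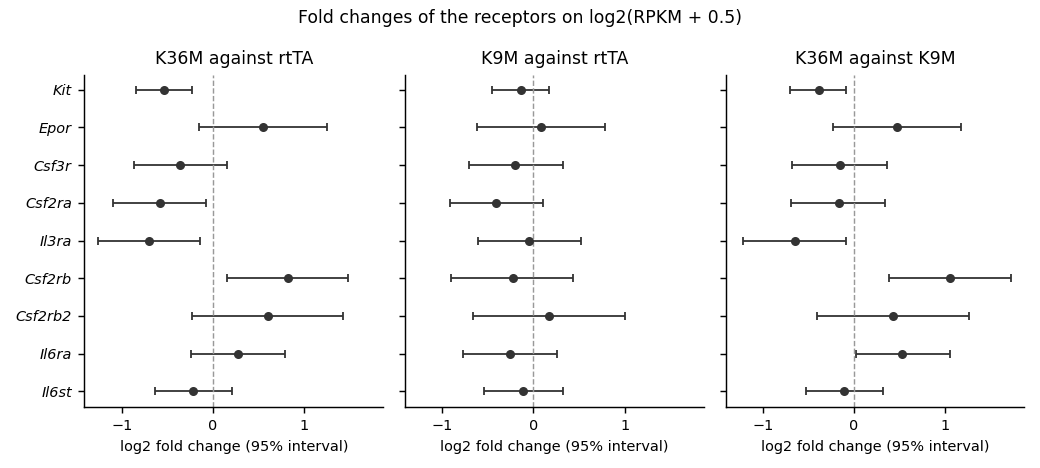
Estimated log2 fold change with 95% interval (horizontal axis) for each receptor in K36M against rtTA, K9M against rtTA and K36M against K9M. The 9 intervals of K9M against rtTA all include 0. The Kit, Csf2ra and Il3ra intervals lie below 0 and the Csf2rb interval above 0 in K36M against rtTA, before adjustment over all genes.

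Genes of granulocyte and monocyte progenitors are set beside Csf2rb here. The 5 primary granule genes, made by early granulocyte progenitors, summed to 2982, 1133 and 3539 RPKM in K36M, 608, 1350 and 840 in K9M, and 818, 830 and 1325 in rtTA. K36M 2 was the lowest K36M library for both Csf2rb and this sum, but in K9M the sum was highest in replicate 2 and Csf2rb in replicate 3. Of that list only Prtn3 was called in a comparison, higher in K36M than in K9M at 377 ± 180 against 88.7 ± 37.3 RPKM (SD, n = 3; 2.02, limma adjusted p = 0.0433). That call was lost without each K9M library, K36M 1, K36M 3, rtTA 2 or rtTA 3 (limma adjusted p up to 0.16), and with no filter, no trend, a robust prior, the replicate block or only the groups compared (up to 0.102). Csf1r, the receptor for M-CSF and a monocyte and macrophage marker, stood at 16.5, 6.35 and 23.6 RPKM in K36M, 3.04, 3.38 and 3.80 in K9M, and 9.26, 4.29 and 10.7 in rtTA, and did not pass (1.85 for K36M against K9M, limma adjusted p = 0.0658). Cx3cr1, the fractalkine receptor gene of the same marker list, was called higher in K36M than in K9M, at 5.22 ± 2.45 against 0.717 ± 0.254 RPKM (SD, n = 3; 2.15, limma adjusted p = 0.0328). The Cx3cr1 call was lost without each K9M library, K36M 1 or K36M 3 (limma adjusted p up to 0.13) and with no filter (0.0834). Of the 6 markers tested from that list, 5 had a positive estimate in K36M against K9M and 1, Ccr2, a negative one (-0.48, limma adjusted p = 0.811). Ccr2 stood at 9.07, 10.3 and 7.85 RPKM in K36M, 20.1, 28.8 and 3.41 in K9M, and 6.67, 3.44 and 29.3 in rtTA. The 6 monocyte and macrophage markers summed to 175, 122 and 371 RPKM in K36M, 45.1, 92.1 and 39.2 in K9M, and 75.6, 82.4 and 228 in rtTA. K9M 3, the K9M library with the most Csf2rb, had the lowest of these sums. The part of such cells in the Csf2rb values was not tested. The genes most like Csf2rb over the 9 libraries were Pus10 (Pearson r = 0.986), Ppfia4 and Os9 (0.975 each).

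**Figure D3:**
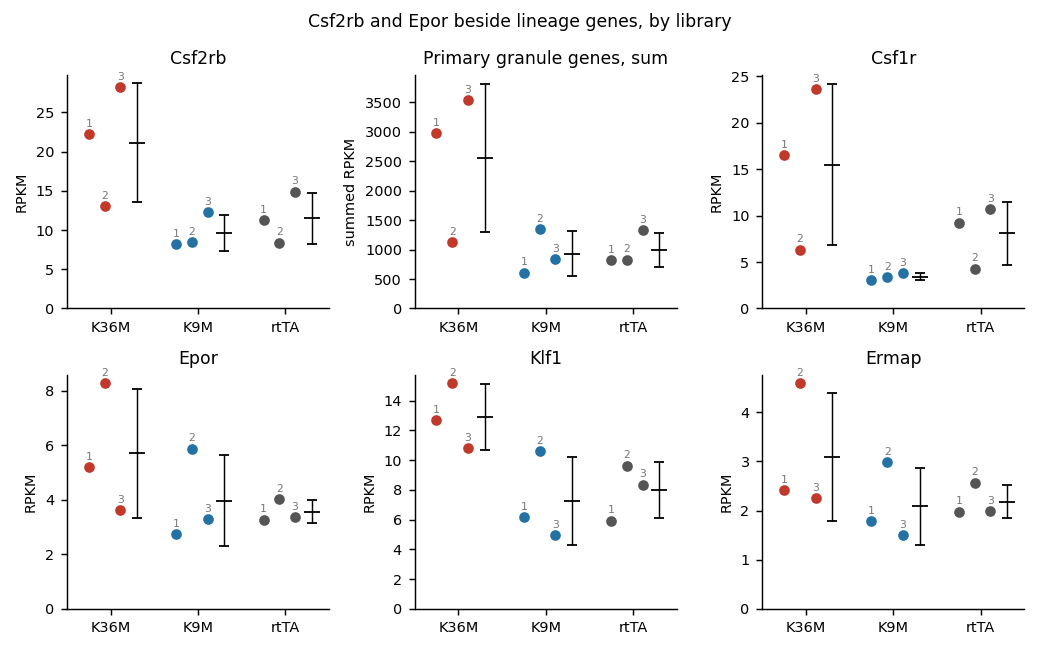
RPKM of Csf2rb, Csf1r, Epor, Klf1 and Ermap and the summed RPKM of 5 primary granule genes (vertical axes) by group, 1 point per mouse with its replicate number, beside the mean and SD. K36M 2 is the lowest K36M library in the upper panels and replicate 2 is the highest of each group in the lower panels. Only 3 of the 12 erythroid markers, Klf1, Gata1 and Ermap, are highest in replicate 2 of every group. The likeness in the lower panels thus follows from the genes shown.

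Il6ra (ENSMUSG00000027947, chromosome 3, 89864059 to 89913196, minus strand) stood at 16.5, 14.2 and 23.3 RPKM in K36M, 12.6, 10.1 and 13.6 in K9M, and 12.3, 12.5 and 19.8 in rtTA. All K36M libraries exceeded all K9M libraries, and rtTA 3 lay within the K36M range. Its fold change was 0.53 for K36M against K9M (interval 0.02 to 1.05, limma adjusted p = 0.248), 0.28 for K36M against rtTA (-0.24 to 0.79, 0.563) and -0.26 for K9M against rtTA (-0.77 to 0.26, 0.848).

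Il6st (ENSMUSG00000021756, chromosome 13, 112464070 to 112510086, plus strand) stood at 4.33, 3.16 and 5.13 RPKM in K36M, 4.26, 4.39 and 4.84 in K9M, and 4.71, 4.05 and 6.08 in rtTA. All groups overlapped, and the fold changes of Il6st were -0.22 for K36M against rtTA (interval -0.64 to 0.21, limma adjusted p = 0.587), -0.11 for K9M against rtTA (-0.54 to 0.32, 0.922) and -0.11 for K36M against K9M (-0.53 to 0.32, 0.817).

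Counting groups that did not overlap, 2 of 9 receptors (Kit and Il3ra, both lower) were set apart in K36M against rtTA, where 22.3% of tested genes were (10.6% of all tested genes, lower). In K9M against rtTA it was 0 of 9, against 12.5% of tested genes. In K36M against K9M it was 4 of 9 (Csf2rb and Il6ra higher, Kit and Il3ra lower), against 27.9% of tested genes, 14.5% higher and 13.4% lower. The median fold change of the 9 receptors was -0.22, -0.14 and -0.11 in K36M against rtTA, K9M against rtTA and K36M against K9M, beside 0.02, 0.01 and 0.01 over all tested genes.

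Ratios within a library do not depend on its scaling and show how paired chains stood to each other. Il6ra over Il6st was 3.82, 4.49 and 4.55 in K36M, 2.95, 2.31 and 2.82 in K9M, and 2.61, 3.08 and 3.25 in rtTA. Every K36M library thus had more Il6ra per Il6st than every other library, while K9M and rtTA overlapped. A pair of beta to alpha chain ratios was added after the values were seen. Csf2rb over Csf2ra was 3.34, 1.61 and 2.59 in K36M, 1.00, 0.789 and 1.25 in K9M, and 1.16, 0.487 and 1.19 in rtTA. Csf2rb over Il3ra was 1.23, 1.49 and 1.81 in K36M, 0.427, 0.305 and 0.653 in K9M, and 0.466, 0.375 and 0.732 in rtTA. In both, all K36M libraries lay above all others, K36M 2 included, and K9M and rtTA overlapped. Csf2rb2 over Csf2rb averaged 0.176 ± 0.0472 in K36M, 0.262 ± 0.0326 in K9M and 0.195 ± 0.0546 in rtTA (SD, n = 3 each), with overlap throughout. These ratios are given as a description and were not tested.

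**Figure D4:**
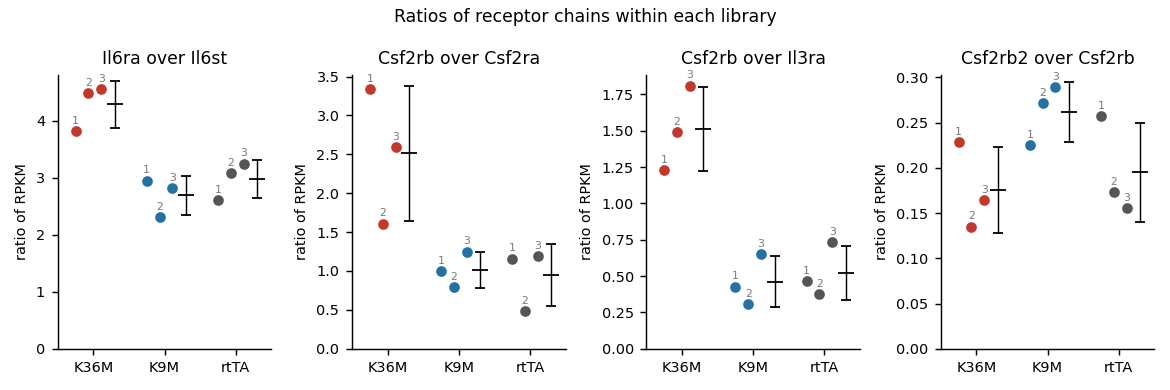
Ratio of RPKM between receptor chains in the same library (vertical axes) by group, 1 point per mouse with its replicate number, beside the mean and SD. The K36M points of Il6ra over Il6st (3.82 to 4.55), Csf2rb over Csf2ra (1.61 to 3.34) and Csf2rb over Il3ra (1.23 to 1.81) lie above those of K9M and rtTA, and Csf2rb2 over Csf2rb overlaps.

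Across the 9 libraries the receptors most alike were Csf2rb and Il6ra (Pearson r = 0.87), Csf3r and Csf2ra (0.83), and Csf2rb and Csf2rb2 (0.81). Epor and Il6st ran most nearly opposite (-0.68). These values share libraries, depth and group differences and are given as a description. Csf2rb and Csf2rb2 may also share reads. By the same measure Kit was most like Reps1 (0.995), Zfp831 (0.973) and Mndal (0.97). Csf3r was most like Trio (0.956), Csf2ra like Fbxl20 (0.955), Csf2rb2 like Milr1 (0.955), Il3ra like Fxr1 (0.902), Il6ra like Zfp526 (0.978) and Il6st like Exoc2 (0.95).

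Other genes of the pathway were taken from a list of 93 genes, of which 81 passed the filter. By limma, 2 were called higher and 3 lower in K36M against rtTA, 1 higher and 0 lower in K9M against rtTA, and 1 higher and 3 lower in K36M against K9M. Over all tested genes the shares called were 0.572% higher and 0.928% lower in K36M against rtTA, 0.0928% higher and 0.0232% lower in K9M against rtTA, and 1.02% higher and 1.50% lower in K36M against K9M. Median fold changes of the list were -0.05, -0.12 and 0.06 in that order of comparisons, beside 0.02, 0.01 and 0.01 over all tested genes.

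Of 13 ligand genes 4 passed the filter, where 12926 of all 37882 genes did. By limma 0 ligand genes were called. An unadjusted limma p under 0.05 was reached by 2, 1 and 1 in K36M against rtTA, K9M against rtTA and K36M against K9M. In that order of comparisons, 19.1%, 7.11% and 18.8% of all tested genes had an unadjusted limma p under 0.05. Epo, Il3 and Thpo were listed at 0 in all libraries, and Kitl, the Kit ligand, stood at 0.0838 to 0.247 RPKM. Csf3, the ligand of Csf3r, stood at 1.65 to 3.04 RPKM in K36M, 2.21 to 3.02 in K9M and 1.31 to 3.76 in rtTA. Osm, which signals through gp130, stood at 3.64, 4.84 and 4.07 RPKM in K36M, 4.81, 5.07 and 5.27 in K9M, and 5.12, 9.76 and 11.3 in rtTA, and did not pass (-0.92 for K36M against rtTA, limma adjusted p = 0.106).

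Among 16 other cytokine receptors 13 were tested, and Crlf2, the receptor chain for TSLP, fell in K36M against rtTA, to 25.8 ± 0.824 against 46.2 ± 3.54 RPKM (SD, n = 3; -0.83, limma adjusted p = 0.048). That call was lost without any one of K9M 1, the K36M libraries or the rtTA libraries (limma adjusted p up to 0.165), and with no filter, median centring, no trend or library weights (up to 0.0953). Il5ra, the third alpha chain that uses Csf2rb, stood at 0.48 to 1.71 RPKM and did not pass the filter. An unadjusted limma p under 0.05 was reached by 2 of the 13 in K36M against rtTA (19.1% of all tested genes). It was reached by 2 in K9M against rtTA (7.11%) and by 3 in K36M against K9M (18.8%).

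All 18 kinases and adaptors were tested, and Fyn, a SRC-family kinase gene, was called lower. It fell to 8.52 ± 1.67 RPKM in K36M, against 14.7 ± 1.51 in rtTA (SD, n = 3; -0.77, limma adjusted p = 0.0441) and 17.2 ± 1.43 in K9M (-0.98, limma adjusted p = 0.0187). The call against rtTA was lost without each library but K36M 2 (limma adjusted p up to 0.157), and with no filter or only the groups compared (up to 0.142). The call against K9M was lost without each K9M library, K36M 1 or K36M 3, with limma adjusted p up to 0.084. None of Jak1, Jak2, Jak3 and Tyk2 passed the limma test in any comparison. Of the 7 STAT genes 0 were called by limma, with 1, 0 and 4 at an unadjusted p under 0.05 in K36M against rtTA, K9M against rtTA and K36M against K9M. Of the 18 kinases and adaptors 5, 2 and 8 had such a p in the same order. The shares of all tested genes were 19.1%, 7.11% and 18.8%.

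Among 23 negative regulators, Socs5, a suppressor of cytokine signalling, and Spry2, which restrains signalling from receptor tyrosine kinases, fell in K36M against K9M. Socs5 stood at 7.83 ± 1.16 RPKM in K36M and 12.2 ± 0.541 in K9M (SD, n = 3; -0.61, limma adjusted p = 0.0485). Spry2 stood at 7.23 ± 1.10 RPKM in K36M and 13.9 ± 1.97 in K9M (-0.90, limma adjusted p = 0.0485), and every K36M library also lay below every rtTA library, which ranged from 10.4 to 17.3 RPKM. Both calls were lost without each K9M library, K36M 1, K36M 3 or rtTA 1, and that of Socs5 also without rtTA 3, with limma adjusted p up to 0.173. Both were lost with no filter or no trend, and Socs5 also with only the groups compared (up to 0.104). Of this list 0 were called by limma in either mutant against rtTA, with 7 for K36M and 2 for K9M at an unadjusted p under 0.05. Of all tested genes 19.1% and 7.11% had such a p in those comparisons. In K36M against K9M 8 of the 23 did, against 18.8% of all tested genes.

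Among 16 known targets of cytokine signalling, Ccnd1, the cyclin D1 gene, rose in both mutants. It stood at 20.4, 20.4 and 22.3 RPKM in K36M, 20.8, 17.5 and 21.0 in K9M, and 12.1, 11.1 and 11.1 in rtTA. The rise was 0.85 in K36M (SE 0.10, limma adjusted p = 0.0108) and 0.76 in K9M (SE 0.10, 0.0367), against the same rtTA libraries. The K36M call was lost without K36M 1, K36M 3 or rtTA 3 (limma adjusted p up to 0.0561). The K9M call was lost without each library but rtTA 1 (up to 0.193), and with no filter, quantile normalization, median centring, no trend, the replicate block or only the groups compared (up to 0.113).

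Pim2, a serine/threonine kinase gene induced by STAT5, rose in K36M. It stood at 15.0, 14.8 and 14.2 RPKM in K36M, 8.28, 7.82 and 8.99 in K9M, and 8.45, 7.87 and 6.11 in rtTA. The rise was 0.94 against rtTA (SE 0.13, limma adjusted p = 0.0164) and 0.77 against K9M (SE 0.13, 0.0219). It was lost without K36M 1 or K36M 3 in both comparisons, and against K9M also without each K9M library (limma adjusted p up to 0.09). Junb, an immediate early gene of the AP-1 family, fell in K36M to 88.6 ± 17.7 RPKM, against 189 ± 14.7 in rtTA (SD, n = 3; -1.11, limma adjusted p = 0.0164). In K9M Junb stood at 103 ± 9.28 RPKM, with all libraries below all rtTA libraries, and overlapped K36M. The K9M difference from rtTA was -0.87 and was not called (limma adjusted p = 0.1), except with library weights (limma adjusted p = 0.0342). The K36M call of Junb was lost without K36M 1, K36M 3, rtTA 2 or rtTA 3 (up to 0.0872), and, like that of Pim2 against rtTA, with only the groups compared (0.0799 each). The groups of these calls did not overlap. An unadjusted limma p under 0.05 was reached by 5 of the 16 targets in K36M against rtTA (19.1% of all tested genes). It was reached by 7 in K9M against rtTA (7.11%) and by 3 in K36M against K9M (18.8%).

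**Figure D5:**
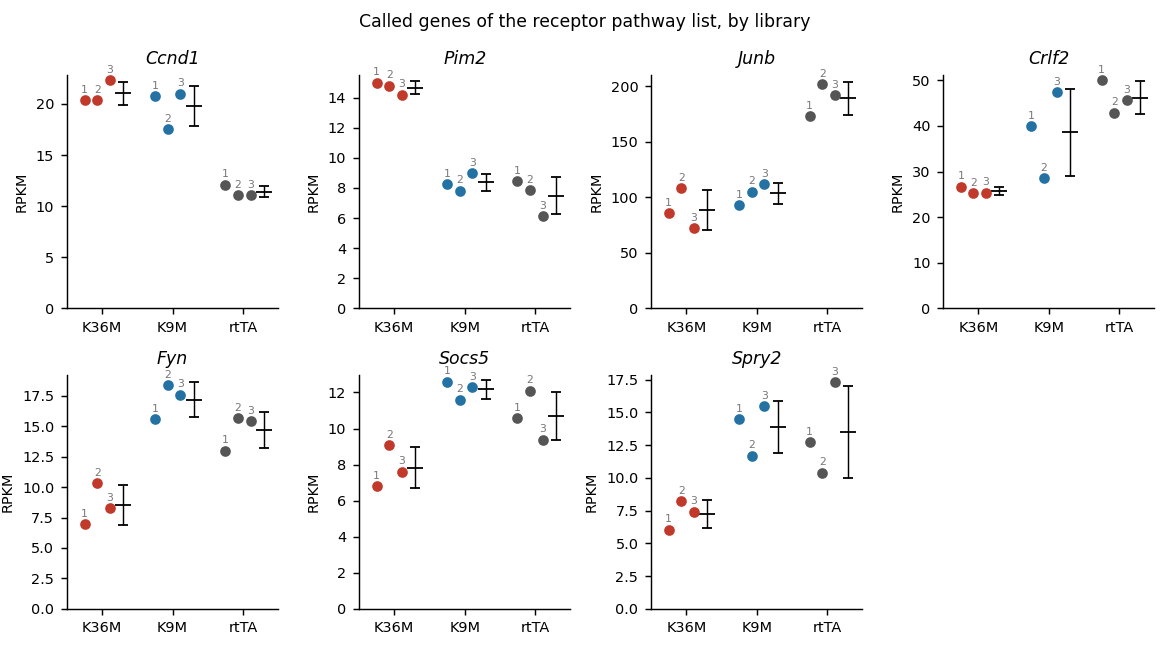
RPKM (vertical axes) of the 7 called pathway genes by group, 1 point per mouse with its replicate number, beside the mean and SD. Ccnd1 is higher in all K36M and K9M libraries than in rtTA, Pim2 is higher in K36M alone (14.2 to 15.0), and Crlf2, Fyn, Socs5 and Spry2 are lowest in K36M.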

How the data were processed

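RNA sequencing of LSK cells from 9 mice was deposited as 1 table of RPKM values. The authors made the RPKM values with CASAVA 1.7 and STAR on mm10, per the submitters' processing notes; the sources used here do not give the annotation, counting rule or STAR version. Columns were tied to samples by the descriptions in the labels, and groups were taken from the titles. Every library came from its own mouse, per the design text. No 2 libraries were identical.

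Of 37882 identifiers, 37607 were found in GENCODE M21 (mm10), which gave positions. Depth was read from low RPKM values, of which 50.5% to 52.1% per library came out as whole reads within a tolerance of 0.02, against 4.0% by chance, so depths and read numbers are approximate.

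limma 3.58.1 in R 4.3.3 was fitted to log2(RPKM + 0.5) of the 12926 genes that reached 1 RPKM in 3 or more libraries, with 3 group means over all 9 libraries and eBayes with a trend (residual degrees of freedom 6, prior 3.14). Two-sided p-values were adjusted over all tested genes by Benjamini-Hochberg. The fit was run on simulated data with 200 changed genes as a check of the code. The simulated noise was independent between libraries, so this does not show which receptor changes could be called. Same-numbered K36M and rtTA libraries deviated together from their group means (Pearson r across genes 0.414, 0.369 and 0.377), which comes from the data and not from the labels. In the other comparisons at least 1 pair lay below 0.1, with 0.162, 0.0599 and 0.0174 in K9M against rtTA. Deviations from a group mean cancel out within the group, so some matching of libraries tends to come out positive in any case. These values therefore cannot show that a number paired the mice.

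The receptors, gene lists and comparisons were chosen with earlier results of these data known. All 9 receptors were named, with pathway genes that were called or had the smallest p in their role. Other pathway genes, among them Kitl, Epo, Il3, Thpo, Csf3, Il5ra and the JAK genes, were named outside this rule. The genes with the highest correlation to each receptor were also named, leaving out model and clone numbers. Of the marker lists, 1 gene symbol was not matched. Promoter sequences were from RefSeq and transcripts from GENCODE M21.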

Additional observations from a re-analysis of the deposited data

How the results depend on the processing

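The 27 fold changes of the receptors were recomputed 543 times under different scalings, pseudocounts, low-value filters and priors, library weights, a replicate block, fits to the 2 groups compared, and without each library. In 530 cases direction and call stayed, in 3 Csf2rb became called, and in 10 an uncalled value near 0 changed sign. With the replicate block 1 receptor, Csf2rb, was called in K36M against rtTA and also in K36M against K9M (1.05, limma adjusted p = 0.0199). In the latter, same-numbered libraries did not all deviate together (Pearson r 0.0741, -0.171 and 0.053). The block changed no other receptor call. Leaving out each library gave 0 to 1 receptors called in K36M against K9M and 0 in the other comparisons. Signs changed over these ranges: for K9M against rtTA Epor -0.21 to 0.28, Csf2rb2 -0.05 to 0.35, Il3ra -0.22 to 0.05 and Il6st -0.23 to 0.04, and for K36M against K9M Csf3r -0.29 to 0.01 and Il6st -0.25 to 0.06. With library weights Il3ra was at 0 in K9M against rtTA.

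All tested genes called in K9M against rtTA numbered 4 with no filter, 8 with quantile normalization, 8 with median centring and 62 with library weights, and 6 to 36 without 1 library. In K36M against rtTA they numbered 76 with no filter, 25 with only the 2 groups compared, 301 with the replicate block and 10 to 402 without 1 library. In K36M against K9M they numbered 118 with no filter, 589 with library weights, 595 with the replicate block and 15 to 509 without 1 library. Pathway genes called in K9M against rtTA numbered 2 with library weights and 0 with no filter, quantile normalization, median centring, no trend, the replicate block or only the 2 groups compared, and 0 to 2 without 1 library. In K36M against rtTA they numbered 3 with no filter, 2 with only the 2 groups compared and 0 to 4 without 1 library. In K36M against K9M they numbered 2 with no filter, 2 with no trend, 7 with library weights, 11 with the replicate block and 0 to 7 without 1 library. The cause of these changes was not tested. With 3 mice a group, standard errors of the log2 fold changes ran from 0.14 (Kit) to 0.37 (Csf2rb2). Estimates well above their standard error also went uncalled. Among them were Kit in K36M against rtTA (-0.54, SE 0.14, limma adjusted p = 0.0918) and Csf2rb in K36M against K9M (1.05, SE 0.3, limma adjusted p = 0.0993). A receptor that was not called is therefore not shown to be unchanged.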
